A study of Homo sapiens with 12 samples.

Results

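The H3K27ac regions of chromosomes 2 and 3 were described in Caki-1 cells, which are an established line of human renal cell carcinoma, and in cells derived from them that resist cabozantinib, an inhibitor of MET, AXL and VEGF receptor kinases. Regions were chosen by merging all peaks that shared 1 bp or more across the 4 H3K27ac peak lists and taking the merged regions that lie on these chromosomes. They numbered 14349 of 89076 in all. Each chromosome was divided at 1 position, chromosome 2 at 115 Mb and chromosome 3 at 78 Mb (hg19), and the pieces are called lower and upper chromosome 2 and lower and upper chromosome 3. No region crossed either position. Gained regions had a peak in both resistant libraries and in neither parental one, lost regions the reverse, shared regions a peak in all 4, and the rest were partial. The parental cells were grown in RPMI 1640. Resistant cells were selected in McCoy's 5A medium with cabozantinib raised from 5 to 20 µM over 2 months, and were afterwards kept in 10 µM. Drug, medium and selection therefore differ together between the lines and cannot be told apart. Each line had 2 H3K27ac libraries, 2 RNA libraries and 2 DNA inputs, and the inputs were not analysed here. Separate cultures are not stated for the replicates in the labels, so p-values measure only the spread between these libraries, which may be technical.

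H3K27ac, acetylation of histone H3 at lysine 27, is placed by the acetyltransferases p300 and CBP and marks active promoters and enhancers. Nucleosomes that carry it tend to flank sites of bound transcription factors, and wide stretches of it are typical of strongly transcribed genes. The short arm of chromosome 3, which holds the lower segment, carries the renal tumour suppressor genes VHL, PBRM1, SETD2 and BAP1 and is frequently lost in clear cell renal carcinoma.

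Parental libraries 1 and 2 had 54810 and 57975 peaks, and resistant libraries 1 and 2 had 52367 and 52856. Mean peak width was 1028 and 1465 bp in parental libraries 1 and 2 and 878 and 1643 bp in resistant libraries 1 and 2, so that replicate 1 had the narrower peaks in both lines. Summed estimated RNA counts were 10605113 and 10584083 for the parental and 14664723 and 12851393 for the resistant libraries. The parental RNA pair differed little beyond sampling noise (a chi-square statistic of 1.95 per gene), whereas the resistant pair differed more (48.4 per gene). PAX8, a renal lineage factor, had between 5450 and 5900 counts in the 4 RNA libraries, and PTPRC, a marker of blood cells, had at most 1. PAX2, another renal lineage factor, had 0 counts in all 4, and CA9, a marker of clear cell carcinoma, had between 0 and 14.

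The 4 segments differed in how their regions were gained and lost. The division of the chromosomes and the classes were both set by these peak lists, so the counts are a description and carry no test. Lower chromosome 2 held 4462 regions, of which 105 were gained (2.35%) and 274 lost (6.14%). Upper chromosome 2 held 4154 regions with 157 gained (3.78%) and 148 lost (3.56%). Lower chromosome 3 held 1234 regions with 54 gained (4.38%) and 25 lost (2.03%). Upper chromosome 3 held 4499 regions with 86 gained (1.91%) and 223 lost (4.96%). Over all chromosomes 3.43% of regions were gained and 3.92% were lost. Losses per gain came to 2.61 in lower and 0.943 in upper chromosome 2, and to 0.463 in lower and 2.59 in upper chromosome 3, beside 1.07 on the other chromosomes. Losses per gain were thus higher in the lower segment of chromosome 2 and in the upper segment of chromosome 3.

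**Figure D1:**
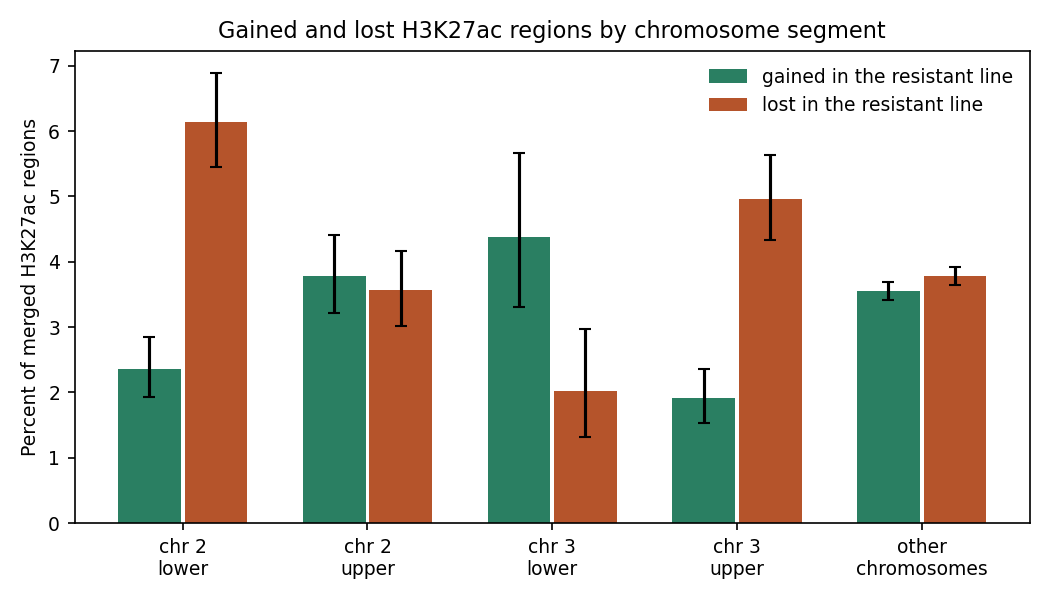
Percent of merged H3K27ac regions gained (green) and lost (brown) in the resistant line, for the 4 segments and all other chromosomes. Bars start at 0 and error lines are exact (Clopper-Pearson) 95% binomial intervals, which cover counting error only. Lost exceeds gained in lower chromosome 2 and upper chromosome 3, and gained exceeds lost in lower chromosome 3.

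These counts depend on the library set. Without 1 resistant library, gained regions need a peak in the remaining one only, and losses per gain fell in every segment without resistant library 1 and in all but lower chromosome 3 without resistant library 2. Without resistant library 1 the value was 0.722 in lower chromosome 2, 0.238 in upper chromosome 2, 0.125 in lower chromosome 3 and 0.524 in upper chromosome 3, beside 0.293 on the other chromosomes. Without resistant library 2 it was 0.985, 0.599, 0.633 and 1.24 in the same order, beside 0.615. Leaving out parental library 1 gave 8.29, 3.99, 1.5 and 11.1, beside 3.64, and leaving out parental library 2 gave 4.56, 1.71, 1.57 and 4.53, beside 2.26. Whether losses outnumber gains in a segment therefore depends on the library set, and the comparison with other chromosomes is less dependent on it. Relative to the other chromosomes, losses per gain stayed between 1.60 and 3.66 times in lower chromosome 2 and between 1.79 and 3.05 times in upper chromosome 3 over 11 settings. In upper chromosome 2 the same ratio ran from 0.757 to 1.10, and in lower chromosome 3 from 0.306 to 1.03, the latter without resistant library 2.

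Most regions of the 2 chromosomes belonged to neither clear class. Of the 14349 regions, 2864 were shared (20.0%) and 10413 were partial (72.6%). A single library alone accounted for 52.1% of regions in lower chromosome 2, 51.9% in upper chromosome 2, 43.8% in lower chromosome 3 and 53.0% in upper chromosome 3, beside 49.6% on the other chromosomes. In lower chromosome 2, 1545 regions had a peak in 1 parental library only and 779 in 1 resistant library only. Upper chromosome 3 showed the same imbalance, with 1627 and 756. The numbers were close in upper chromosome 2, at 1081 and 1073, and were 239 and 301 in lower chromosome 3.

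Regions with a peak in both parental libraries were kept to different degrees. Of 1553 such regions in lower chromosome 2, 939 also had a peak in both resistant libraries (60.5%), and 17.6% had one in neither. Upper chromosome 3 kept 827 of 1439 (57.5%) and lost 15.5%. Of 1205 in upper chromosome 2, 769 were kept (63.8%) and 12.3% lost. Lower chromosome 3 kept 329 of 431 (76.3%), with 5.80% lost, and the other chromosomes kept 67.7% and lost 11.4%. Read from the resistant side, 8.91% of the regions with a peak in both resistant libraries had none in the parental line in lower chromosome 2, 13.8% in upper chromosome 2, 11.6% in lower chromosome 3 and 8.32% in upper chromosome 3, beside 11.6% elsewhere.

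The separate peak lists were also described without any merging. They hold the same peaks as the regions and are not a separate test. Lower chromosome 2 held 5.41% and 5.34% of the peaks in the parental lists and 4.58% and 4.27% in the resistant lists, so the lines did not overlap. Upper chromosome 3 held 5.09% and 5.63% in the parental lists and 4.09% and 4.56% in the resistant lists, again without overlap. For upper chromosome 2 the shares were 4.17% and 4.56% in the parental and 4.41% and 4.76% in the resistant lists, which overlap. Lower chromosome 3 held 1.46% and 1.30% against 1.404% and 1.65%, which also overlap. The mean difference, resistant minus parental, was -0.946 percentage points in lower chromosome 2 and -1.04 in upper chromosome 3.

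Here scores were compared only as ranks within each list, since the meaning of the authors' deposited score is not given in the sources used here. Elsewhere deposited scores were used across lists, in the weaker score of a region and in a cut-off set for all lists. The lists differed in scale, with median scores of 6.70 and 6.29 in the parental and 6.31 and 7.48 in the resistant lists. Those uses therefore depend on the scale of each list. Each of the 19572 regions shared by all libraries was ranked by its best peak among these shared regions alone. A percentile of 50 is thus the middle of the shared regions, not of the whole list. In lower chromosome 2 the median shared region stood at percentile 55.4 and 58.8 in the parental lists and 45.9 and 45.5 in the resistant lists. In upper chromosome 3 it stood at 50.1 and 56.9, then at 44.0 and 45.5. Shared regions of upper chromosome 2 had medians of 47.2 and 49.5 in the parental and 50.5 and 50.1 in the resistant lists. In lower chromosome 3 the medians were 43.8, 36.7, 44.0 and 44.1. The regions that stayed in all 4 lists thus stood lower among all shared regions in both resistant lists in the same segments where losses were frequent. Many scores are tied, and some medians are equal across segments. Among all peaks of a list the differences were smaller. There the median peak of lower chromosome 2 stood at percentile 48.3 and 48.8 in the parental and 46.2 and 47.3 in the resistant lists. In upper chromosome 3 it stood at 48.2 and 47.0, then at 47.3 and 45.1, so the lines overlap.

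Regions were unevenly dense. Lower chromosome 3 had 15.8 regions per Mb, against 37.5 in upper chromosome 3, 38.8 in lower chromosome 2 and 32.4 in upper chromosome 2. Per protein-coding gene of the gene table, lower chromosome 3 had 2.53 regions, upper chromosome 3 had 7.78, lower chromosome 2 had 7.13 and upper chromosome 2 had 6.61, beside 4.23 on the other chromosomes. The low density of lower chromosome 3 was present in all 4 lists, with 1.64 and 1.54 peaks per gene in the parental and 1.51 and 1.79 in the resistant line.

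Gained and lost regions were narrow beside shared ones. Median widths of gained regions were 845, 945, 938.5 and 948 bp in lower chromosome 2, upper chromosome 2, lower chromosome 3 and upper chromosome 3. Lost regions had medians of 1086.5, 950.5, 783 and 1144 bp in the same order, and shared regions of 2918, 2803, 2133 and 3004 bp. A merged region can only grow as more lists contribute a peak, so these widths follow in part from the merging. The weaker of the 2 scores behind a lost region had a median of 4.14 in lower chromosome 2 and 3.91 in upper chromosome 3, where 4.15 was the median over lost regions of the other chromosomes.

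The excess of losses in lower chromosome 2 and upper chromosome 3 was spread over most of their windows. Windows of 5 Mb were counted where gained and lost regions together numbered at least 5. In lower chromosome 2, 18 of 21 such windows had more lost than gained regions, and in upper chromosome 3, 17 of 21 did. Upper chromosome 2 was mixed, with 10 windows of more lost, 9 of more gained and 2 equal. Only 6 windows of lower chromosome 3 had enough regions, and 4 of them had more gained, 1 more lost and 1 equal numbers. The window from 35 to 40 Mb of chromosome 2 had 3 gained and 27 lost of 300 regions. At the far end of the same chromosome, the window from 235 to 240 Mb had 25 gained and 2 lost of 283. The window from 215 to 220 Mb had 21 gained and 23 lost of 279. On chromosome 3 the window from 45 to 50 Mb had 17 gained and 1 lost of 182, which is 17 of the 54 gained regions of the lower segment. These 4 windows were picked after their counts were seen.

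**Figure D2:**
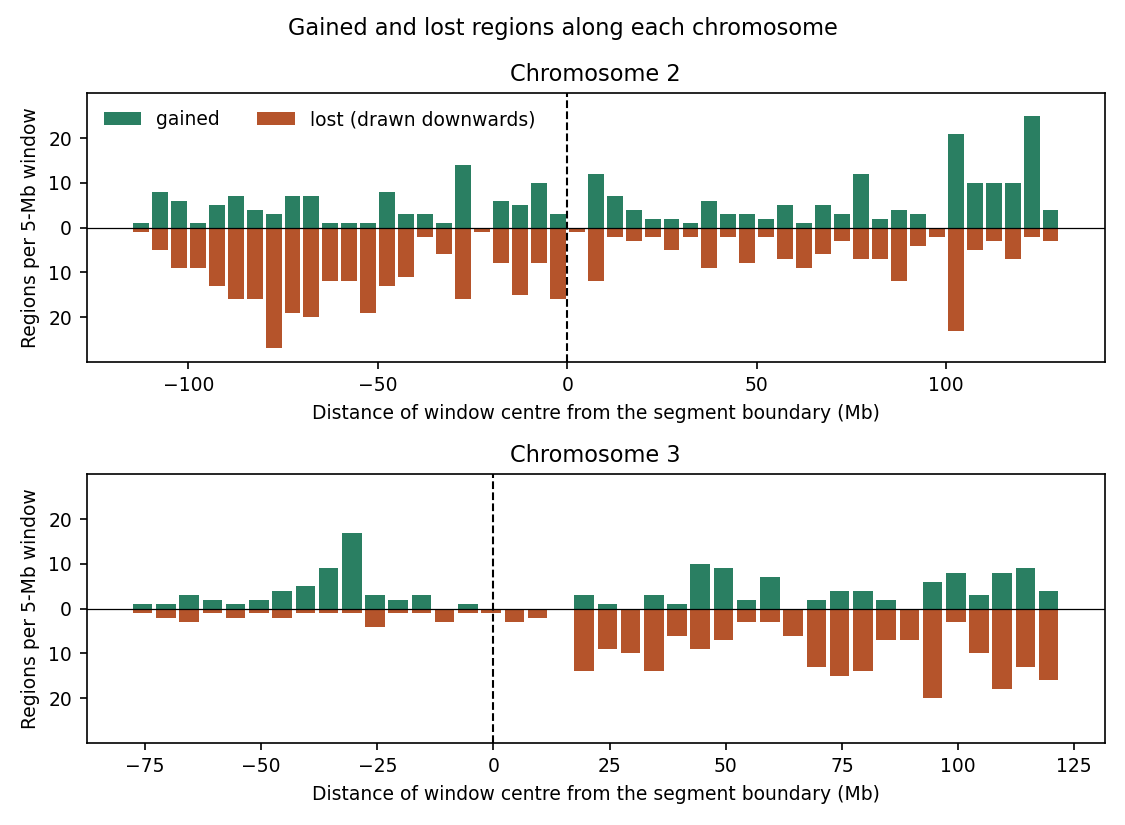
Number of gained regions (green, upwards) and lost regions (brown, downwards) in windows of 5 Mb along chromosomes 2 and 3, placed by the distance of the window centre from the division (dashed line). Lost regions outnumber gained ones in 18 of the 21 windows counted left of the line on chromosome 2 and in 17 of the 21 right of it on chromosome 3.

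Individual regions were ranked by the weaker of their 2 deposited scores, which were not scaled between lists. The strongest lost region of lower chromosome 2 was chr2:17042061-17044203, with scores of 14.9 and 15.7 in the parental lists and no peak in the resistant lists. The next was chr2:65005494-65008026, with 15.2 and 14.8. Another, chr2:20624067-20624885, had 14.7 and 12.6. Gained regions of this segment were led by chr2:14929043-14931397, with scores of 10.5 and 11.9 in the resistant lists, followed by chr2:87929036-87929927 with 8.80 and 10.0 and chr2:42068161-42068651 with 8.33 and 9.67. Losses were scored only in parental and gains only in resistant lists, so the scores of the classes were not compared.

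In upper chromosome 2 the strongest lost region was chr2:216234034-216237248, 3215 bp wide, with scores of 13.7 and 13.9. It lies in the window from 215 to 220 Mb that held many gains and many losses. The other leading losses were chr2:124838988-124840042, with 12.8 and 8.66, and chr2:158102686-158103781, with 9.61 and 8.65. Leading gains were chr2:220154199-220155240 with 10.5 and 10.0, chr2:206839056-206842183 with 10.0 and 11.7, and chr2:171599385-171601671 with 14.1 and 9.32.

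The leading losses of lower chromosome 3 were chr3:71160125-71160961 with scores of 17.9 and 6.44, chr3:52083322-52084176 with 7.19 and 6.06, and chr3:52099631-52100373 with 6.01 and 7.02. Its leading gains had scores of 11.3 and 12.7 at chr3:58419087-58419602, 10.5 and 11.9 at chr3:30685108-30685898, and 10.0 and 12.7 at chr3:4909413-4910810. Upper chromosome 3 had few gains, yet it held the gained region with the highest weaker score of the 4 segments, chr3:138079149-138082502, 3354 bp wide, with 17.7 and 32.7. The other leading gains were chr3:151261226-151262044 with 13.1 and 12.7 and chr3:125362606-125363940 with 8.48 and 9.37. Its leading losses were chr3:181340224-181341192 with 14.1 and 12.9, chr3:180983577-180984194 with 12.3 and 16.5, and chr3:126701078-126701786 with 11.9 and 11.4. No gene is named for any region, because the regions are in hg19 and the gene table is in GRCh38.

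The 2 shared regions of each segment with the highest lowest percentile over the 4 lists were wide, with 1 exception. On lower chromosome 2, chr2:105986302-106031485 spanned 45184 bp and scored 103 and 90.3 in the parental lists and 56.7 and 134 in the resistant lists. The other of this segment, chr2:114022722-114043555, 20834 bp wide, scored 112, 65.7, 110 and 93.2. On upper chromosome 2, chr2:208025316-208032584 scored 89.1, 64.5, 76.2 and 153, and chr2:178123697-178133035 scored 71.9, 70.9, 71.7 and 124. Upper chromosome 3 held chr3:101562947-101585284, 22338 bp wide, with 126, 65.3, 101 and 124, and chr3:156874234-156879776 with 88.0, 55.8, 49.5 and 105. The exception was chr3:73159725-73160208 on lower chromosome 3, which is only 484 bp wide and scored 577.6, 296.9, 331.9 and 710.1. It ranked 1 in both parental lists, 2 in resistant library 1 and 1 in resistant library 2. Since the inputs were not analysed, whether this region also stands out in input DNA was not tested. The next shared region of that segment, chr3:14183834-14190416, scored 40.7, 29.6, 25.9 and 78.1. It ranked only 1510 and 2732 in the parental and 2228 and 499 in the resistant lists.

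RNA was not used to choose the regions and gave a separate measure of the same segments. Genes were placed by their order on the chromosome, with the segments divided before DPP10 on chromosome 2 and between ROBO2 and ROBO1 on chromosome 3. Of 12792 genes tested with edgeR's quasi-likelihood test, 6.37% passed an adjusted p of 0.05, 2.96% higher and 3.41% lower in the resistant line. In lower chromosome 2, 5 of 427 tested genes rose and 34 fell (7.96%). In upper chromosome 3, 8 of 376 rose and 35 fell (9.31%). Upper chromosome 2 had 16 rises and 10 falls among 411 genes, and lower chromosome 3 had 4 rises and 2 falls among 325. Of the falls, 21 in lower chromosome 2 and 23 in upper chromosome 3 were at least 2-fold.

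The shift was not limited to the genes that passed the test. The median log2 fold change was -0.33 in lower chromosome 2 and -0.32 in upper chromosome 3, beside 0.02 over all tested genes, 0.08 in upper chromosome 2 and 0.07 in lower chromosome 3. Fold changes were below 0 for 80.6% of the genes of lower chromosome 2 and 77.1% of those of upper chromosome 3, but for 42.6% in upper chromosome 2 and 43.4% in lower chromosome 3. Both resistant libraries lay below both parental ones for 61.8% of genes in lower chromosome 2 and 58.5% in upper chromosome 3, where 29.7% of all tested genes did. In upper chromosome 2 and lower chromosome 3 these shares were 22.4% and 21.8%. Both resistant libraries lay above both parental ones for 8.20%, 37.0%, 32.0% and 9.04% of genes in lower and upper chromosome 2 and lower and upper chromosome 3, beside 30.9% of all. Resistant libraries 1 and 2 taken singly had medians of -0.30 and -0.40 in lower chromosome 2 and -0.25 and -0.42 in upper chromosome 3. They had 0.12 and 0.04 in upper chromosome 2 and 0.07 and 0.06 in lower chromosome 3. Medians of parental library 1 over parental library 2 were between -0.02 and 0.02 in every segment.

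The number of calls depended on the library set. Without parental library 1 or 2, the falls numbered 14 and 13 in lower chromosome 2, 8 and 7 in upper chromosome 2, 2 and 2 in lower chromosome 3, and 22 and 20 in upper chromosome 3. Without resistant library 1 or 2 they numbered 221 and 199 in lower chromosome 2, 118 and 52 in upper chromosome 2, 64 and 39 in lower chromosome 3, and 195 and 147 in upper chromosome 3. Rises moved likewise, in the same order of libraries, from 2 and 2 to 35 and 16 in lower chromosome 2, from 9 and 9 to 107 and 99 in upper chromosome 2, from 3 and 3 to 82 and 43 in lower chromosome 3, and from 3 and 2 to 29 and 21 in upper chromosome 3. The segment medians moved less. Measured against the median of all genes, they stayed between -0.40 and -0.31 in lower chromosome 2, -0.42 and -0.27 in upper chromosome 3, 0.03 and 0.11 in upper chromosome 2, and 0.04 and 0.09 in lower chromosome 3 over 11 settings. Fold changes fell with gene length over all genes, with medians of 0.18, 0.03 and -0.16 in the lowest, middle and highest tertile of effective length. Within those tertiles the genes of lower chromosome 2 lay -0.32, -0.35 and -0.35 from the median of all genes, and those of upper chromosome 3 lay -0.24, -0.36 and -0.26 from it. This split by length was chosen after seeing the data.

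RNA was also followed along the chromosomes. Tested genes were taken 25 at a time in chromosome order. All 17 windows of lower chromosome 2 had a median below 0, from -0.56 to -0.13, as had all 15 windows of upper chromosome 3, from -0.54 to -0.10. Of the windows of upper chromosome 2, 6 of 16 were below 0, and of those of lower chromosome 3, 5 of 13. The last window of lower chromosome 2, from SOWAHC to ACTR3, had a median of -0.27, and the next, from DDX18 to WDR33, had 0.08. On chromosome 3 the window from FHIT to ZNF717 had -0.10 and the next, from ROBO1 to LNP1, had -0.54. The window at the end of chromosome 2, from COL6A3 to GAL3ST2, had the highest median of either chromosome, 0.38, with 8 of 36 genes below 0. Inside lower chromosome 2 the windows from DGUOK to POLE4 and from EVA1A to PTCD3 were nearest to 0, at -0.13 and -0.14.

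**Figure D3:**
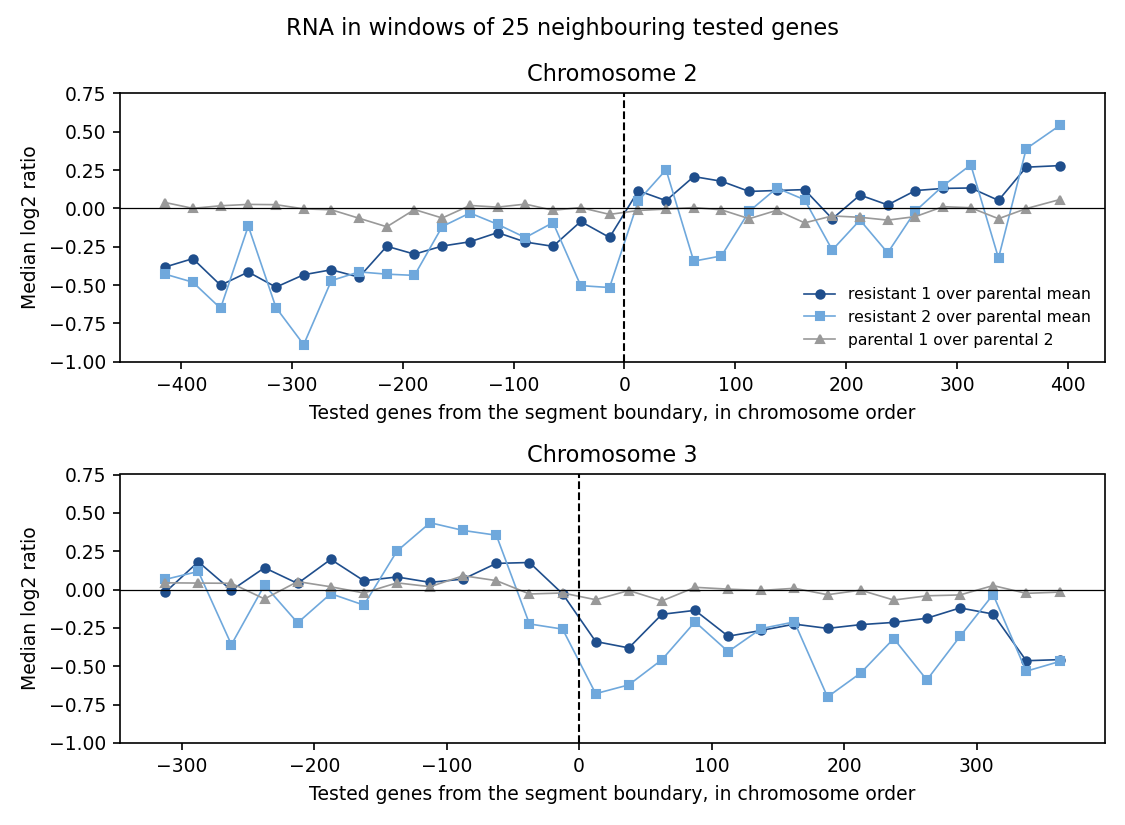
Median log2 ratio of RNA in windows of 25 neighbouring tested genes, plotted by the number of tested genes from the division (dashed line). Dark circles are resistant library 1 and light squares resistant library 2, each over the parental mean, and grey triangles are parental library 1 over parental library 2. The combined medians of the 17 windows left of the line on chromosome 2 and of the 15 right of it on chromosome 3 are all below 0, while the grey points stay near 0.

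The share of all RNA counts fell in lower chromosome 2 (-0.720 percentage points, resistant minus parental) and upper chromosome 3 (-0.814). It fell most in upper chromosome 2 (-2.65), with FN1 counted. Genes of lower chromosome 2 took 3.36% and 3.38% of counts in the parental and 2.72% and 2.59% in the resistant libraries. Upper chromosome 3 took 2.77% and 2.79%, then 2.11% and 1.82%. Lower chromosome 3 took 1.39% and 1.39%, then 1.47% and 1.47%, but as percent of summed TPM it turned the other way, to a difference of -0.0201 points. In counts the lines did not overlap in any of these, and the exact two-sided permutation test gave p = 0.333, the smallest value that 2 libraries against 2 allow. For upper chromosome 2 the share was 5.48% and 5.4003% in the parental and 2.99% and 2.59% in the resistant line (exact permutation p = 0.333). FN1 alone made up 3.07% of parental and 0.282% of resistant counts. Without FN1 the shares of upper chromosome 2 were 2.36% and 2.38%, then 2.60% and 2.41%. FN1 was left in the totals, which lowers these parental shares more than the resistant ones. On this scale the difference turned to 0.140 percentage points higher in the resistant line. Shares of totals without FN1 were not computed. As percent of summed TPM, with FN1 counted, upper chromosome 2 held 2.46% and 2.39%, then 1.87% and 1.84%.

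Chromosomes and segments with many losses were also those with low RNA medians. Over 25 units, namely the 4 segments and each other chromosome with enough genes, chromosome 6 had the largest excess of the percent lost over the percent gained (4.43 points). Lower chromosome 2 ranked 2 (3.79 points) and upper chromosome 3 ranked 5 (3.05 points), and chromosomes 12 and 10 stood between them. The same 5 units had the 5 lowest RNA medians, with lower chromosome 2 lowest and upper chromosome 3 next. Chromosome 6, with the largest excess of losses, had the highest RNA median of these 5, at -0.106. Among the other 20 units the lowest RNA median was close to it, at -0.0962, and the largest excess of losses was 0.898 points. Upper chromosome 2 (-0.217 points) and lower chromosome 3 (-2.35 points) fell among those. Both measures come from the same lines, so this is a description over 25 points. Chromosomes 2 and 3 were divided at positions set by the peak lists, whereas the other units are whole chromosomes. The ranks of the segments may therefore follow in part from the division.

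**Figure D4:**
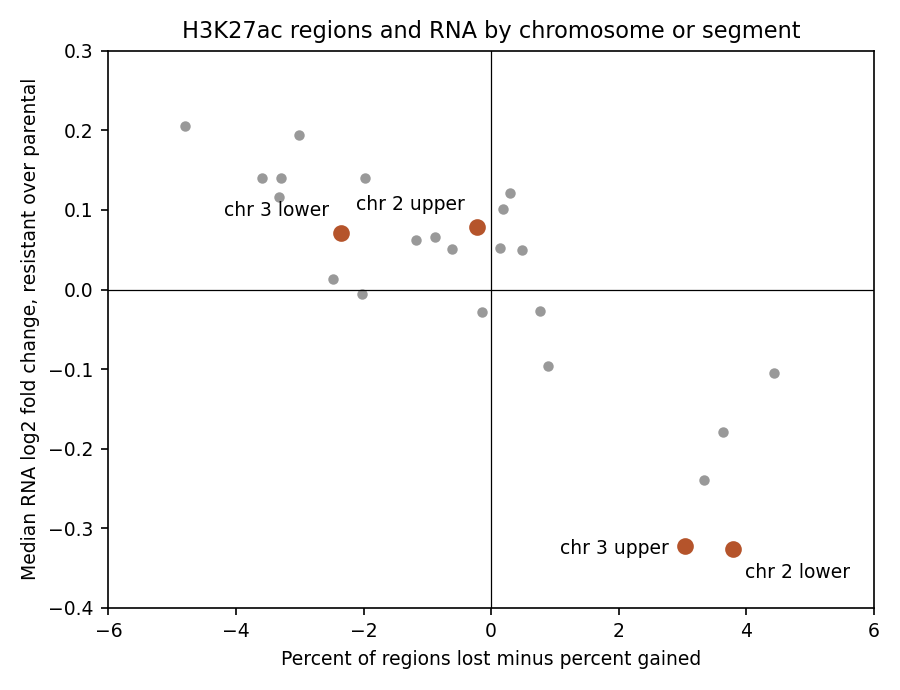
Median RNA log2 fold change of each chromosome or segment against the percent of its H3K27ac regions lost minus the percent gained. Brown points are the 4 segments of chromosomes 2 and 3 and grey points are 21 other chromosomes. Lower chromosome 2 and upper chromosome 3 have the lowest RNA medians, near -0.33 and -0.32.

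Among genes of lower chromosome 2 at a mean log2 CPM of 2 or more, the largest falls were in ADD2, IL1A and CRIM1. ADD2, a membrane skeleton protein, was at 49.3 and 50.3 CPM (counts scaled to library size) in the parental and 2.00 and 1.24 CPM in the resistant libraries. Its log2 fold change was -4.91 ± 0.26 (SE; edgeR adjusted p = 0.00198). IL1A, an inflammatory cytokine, was at 23.1 and 24.0 CPM against 6.34 and 2.10 CPM (log2 fold change -2.46 ± 0.46, edgeR adjusted p = 0.0369). CRIM1, a transmembrane protein that binds BMP ligands, was at 687 and 673 CPM against 213 and 125 CPM (-2.01 ± 0.27 on the log2 scale, edgeR adjusted p = 0.0167). In all 3 resistant library 2 was the lowest. The lines did not overlap, which was a condition of how these genes were chosen.

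Of the 5 rises of that segment, the largest at a mean log2 CPM of 2 or more were in SULT1C2, PLEK and KCNS3. SULT1C2, a cytosolic sulfotransferase, was at 3.21 and 3.20 CPM in the parental and at 11.96 CPM in both resistant libraries (log2 fold change 1.90 ± 0.23, edgeR adjusted p = 0.0135). PLEK, a substrate of protein kinase C in platelets, rose from 9.93 and 7.56 CPM to 37.1 and 22.3 CPM (1.77 ± 0.31, edgeR adjusted p = 0.0304). KCNS3, a modifying subunit of potassium channels, rose from 4.58 and 5.04 to 12.5 and 15.1 CPM (1.51 ± 0.24, edgeR adjusted p = 0.0235). The call of KCNS3 was lost without parental library 1 (adjusted p = 0.0826) or parental library 2 (0.0534), in a range from 8.43e-05 to 0.0826 over 10 alternatives.

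Transcription factors of lower chromosome 2 showed 1 fall and no rise among 10 tested of 17 listed, with 7 below 0 and a median of -0.63. Over the whole segment 7.96% of genes fell and 80.6% were below 0. DESeq2 called 3 of the list lower and 0 higher. With edgeR the gene that fell was KLF11, a zinc finger repressor. It was at 29.4 and 26.8 CPM against 12.3 and 11.8 CPM (-1.22 ± 0.17, edgeR adjusted p = 0.0192). Its adjusted p ran from 6.20e-05 to 0.0970 over 10 alternatives and missed the threshold without parental library 1. PAX8, the renal lineage factor, did not pass, at 557 and 572 CPM against 352 and 427 CPM (-0.53, edgeR adjusted p = 0.104).

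Of 10 listed genes of the interleukin-1 family and its receptors, 4 were tested, all in lower chromosome 2. Of these 2 fell and none rose, with 3 below 0 and a median of -0.84. Over the whole segment 7.96% of tested genes fell and 80.6% were below 0, beside 3.41% and 48.5% of all tested genes. Besides IL1A, IL1B fell, from 11.7 and 13.4 to 3.49 and 4.89 CPM (-1.58 ± 0.27, edgeR adjusted p = 0.0292). The call of IL1B was lost without parental library 2 (adjusted p = 0.0725, the highest of 10 alternatives, from 4.92e-05). The receptor IL1R1 was at a log2 fold change of -0.09 and IL18R1, the interleukin-18 receptor, at 1.15, and neither passed.

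Genome maintenance genes of chromosome 2 gave no call among 16 tested with edgeR, 4 at an unadjusted p under 0.05 and 1 lower with DESeq2. Of these, 7 lie in the lower segment. Over all tested genes 6.37% passed, and at that share few calls would be expected among 16. MSH6, a mismatch repair protein of the lower segment, was at 118 and 130 CPM against 78.4 and 80.2 CPM (-0.65, edgeR adjusted p = 0.0524). It passed with DESeq2 (adjusted p = 0.0242), and its adjusted p ran from 0.00421 to 0.670 over 10 alternatives. XRCC5, the Ku80 subunit of end joining, lies in the upper segment and was at 292 and 298 CPM against 281 and 293 CPM (-0.04, edgeR adjusted p = 0.874), with overlap between the lines.

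In upper chromosome 2 the gene with the most counts had the largest fall. FN1, which encodes fibronectin, a major matrix protein, was at 32281 and 30997 CPM in the parental and 3640 and 1796 CPM in the resistant libraries (log2 fold change -3.54 ± 0.36, edgeR adjusted p = 0.00918). AOX1, an aldehyde oxidase, fell from 41.2 and 44.1 to 11.5 and 4.12 CPM (-2.43 ± 0.43, edgeR adjusted p = 0.0327). PDK1, a kinase that inhibits pyruvate dehydrogenase, fell from 43.2 and 40.6 to 13.2 and 15.1 CPM (-1.57 ± 0.17, edgeR adjusted p = 0.0103). These 3 falls stand in a segment whose median was above 0.

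At the same level limit, a mean log2 CPM of 2 or more, rises of upper chromosome 2 were led by SP140, SGPP2 and NGEF. SP140, a nuclear body protein of immune cells, rose from 2.04 and 2.71 to 15.3 and 9.63 CPM (2.39 ± 0.34, edgeR adjusted p = 0.0205). SGPP2, a sphingosine phosphate phosphatase, rose from 3.60 and 3.97 to 24.0 and 10.3 CPM (2.18 ± 0.44, edgeR adjusted p = 0.0451). Its adjusted p ran from 2.35e-08 to 0.0549 over 10 alternatives, the highest where only genes at a mean log2 CPM of 2 or more were tested. NGEF rose from 3.21 and 5.43 to 13.3 and 19.6 CPM (1.92 ± 0.34, edgeR adjusted p = 0.0327).

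Matrix and secreted genes of chromosome 2 had 2 falls and no rise among 15 tested of 19, with 12 below 0 and a median of -0.67. EFEMP1, a fibulin of the lower segment, fell from 19.3 and 18.6 to 5.37 and 6.21 CPM (-1.71 ± 0.21, edgeR adjusted p = 0.0129), and FN1 was the other. Of the tested members, 5 of 5 in the lower and 7 of 10 in the upper segment were below 0. Those shares were 80.6% and 42.6% over all tested genes of the 2 segments, of which 7.96% and 2.43% fell. DESeq2 called 7 of the list lower and 0 higher. Stress, interferon and death genes of upper chromosome 2 had 3 rises and no fall among 15 tested of 16, with 10 below 0 and a median of -0.19. Over the whole upper segment 3.89% of tested genes rose, 2.43% fell and 42.6% were below 0. The rises of the list were in SP140, SP110 and IDH1, which encodes a cytosolic isocitrate dehydrogenase. SP110, a paralogue of SP140, was at 12.9 and 14.0 CPM against 35.8 and 26.95 CPM (1.22 ± 0.21, edgeR adjusted p = 0.0292). Its call was lost without parental library 1 (adjusted p = 0.133) and without parental library 2 (0.0905), in a range from 4.72e-05 to 0.133 over 10 alternatives.

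The HOXD cluster, a row of developmental transcription factors in upper chromosome 2, gave no call with edgeR among 7 tested of 10, 1 at an unadjusted p under 0.05 and 0 with DESeq2. Its most abundant members were HOXD8, at 13.8 and 12.6 CPM against 17.5 and 20.4 CPM, and HOXD9, at 12.9 and 11.2 CPM against 12.9 and 16.5 CPM. Integrins of both chromosomes gave no edgeR call among 5 tested of 6, 1 at an unadjusted p under 0.05 and 0 with DESeq2. ITGAV, the alpha-V subunit, was at 375 and 372 CPM in the parental and 428 and 205 CPM in the resistant line, so the resistant pair lay on both sides of the parental one. ITGB5, the beta-5 subunit on upper chromosome 3, was at 307 and 313 CPM against 309 and 347 CPM. TGF-beta family receptors and ligands gave no edgeR call among 7 tested of 11, 0 at an unadjusted p under 0.05 and 0 with DESeq2. Of all tested genes 6.37% passed, so the absence of calls in these short lists says little. TGFBRAP1, which binds the TGF-beta receptors, was at 108 and 116 CPM against 119 and 93.9 CPM, and BMPR2, a type II BMP receptor, at 56.5 and 59.7 CPM against 59.0 and 39.8 CPM.

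In lower chromosome 3 the renal tumour suppressors gave no call with edgeR among 11 tested of 12, 2 at an unadjusted p under 0.05 and 0 with DESeq2. Their median log2 fold change was -0.03, with 6 below 0, where 43.4% of all tested genes of the segment were below 0. Over that segment 1.23% of tested genes rose and 0.615% fell, so few calls would be expected in the list. BAP1, a deubiquitinase of histone H2A, was at 73.1 and 74.8 CPM in the parental and 94.2 and 95.3 CPM in the resistant line (0.36 ± 0.14, edgeR adjusted p = 0.163), without overlap. It passed without resistant library 1 (adjusted p = 0.00794) and without resistant library 2 (0.0143), in a range up to 0.882. RBM5, an RNA-binding protein of splicing, was at 68.7 and 73.3 CPM against 64.5 and 75.04 CPM, with overlap. VHL, the recognition subunit that targets hypoxia-inducible factors, PBRM1, a chromatin remodelling subunit, and SETD2, a histone H3 lysine 36 methyltransferase, had log2 fold changes of 0.17, -0.11 and -0.21, and none passed.

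Signalling and adhesion genes of lower chromosome 3 had 1 rise and 1 fall among 18 tested of 22, with 8 below 0 and a median of 0.08. Over the whole segment 1.23% of tested genes rose, 0.615% fell and 43.4% were below 0. By DESeq2, 2 of the list were higher and 1 lower. PPARG, a nuclear receptor of lipid metabolism, rose from 13.7 and 15.5 to 43.7 and 33.0 CPM (1.39 ± 0.21, edgeR adjusted p = 0.0220). Its adjusted p ran from 1.76e-06 to 0.0663 over 10 alternatives and missed the threshold without parental library 1. OXTR, the oxytocin receptor, fell from 29.5 and 39.2 to 8.40 and 11.4 CPM (-1.80 ± 0.24, edgeR adjusted p = 0.0167). GLYCTK, a glycerate kinase outside the list, rose from 2.82 and 2.23 to 6.21 and 8.70 CPM (1.55 ± 0.32, edgeR adjusted p = 0.0460). The call of GLYCTK was lost without parental library 1 (adjusted p = 0.0901) and without parental library 2 (0.245), in a range from 0.00107 to 0.245.

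In upper chromosome 3 the largest falls were in ZPLD1, CLSTN2 and ABI3BP. ZPLD1, a zona pellucida domain protein, was at 18.6 and 17.4 CPM against 0.517 and 0.621 CPM (-4.97 ± 0.29, edgeR adjusted p = 0.00198). CLSTN2, a calsyntenin of the cadherin superfamily, was at 470 and 458 CPM against 24.5 and 34.2 CPM (-3.99 ± 0.21, edgeR adjusted p = 0.00198). ABI3BP, an extracellular matrix protein, was at 79.1 and 77.8 CPM against 8.34 and 4.27 CPM (-3.62 ± 0.31, edgeR adjusted p = 0.00566). All 3 were more than 10-fold lower. The lines did not overlap, which was again a condition of the choice.

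Rises of upper chromosome 3 at a mean log2 CPM of 2 or more were led by BDH1, CHST13 and DGKG. BDH1, a ketone body dehydrogenase, rose from 5.84 and 3.005 to 20.5 and 21.2 CPM (2.23 ± 0.32, edgeR adjusted p = 0.0205). CHST13, a chondroitin sulfotransferase, rose from 5.06 and 3.97 to 12.7 and 16.5 CPM (1.68 ± 0.26, edgeR adjusted p = 0.0239). It missed the threshold without parental library 2 (adjusted p = 0.0636, the highest of 10 alternatives, from 9.17e-06). DGKG, a diacylglycerol kinase, rose from 5.55 and 5.04 to 14.5 and 10.6 CPM (1.25 ± 0.26, edgeR adjusted p = 0.0484). Its call was lost without parental library 1 (adjusted p = 0.149), without parental library 2 (0.255) and where genes under a mean log2 CPM of 2 were left out (0.0559), in a range from 0.00232 to 0.255.

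**Figure D5:**
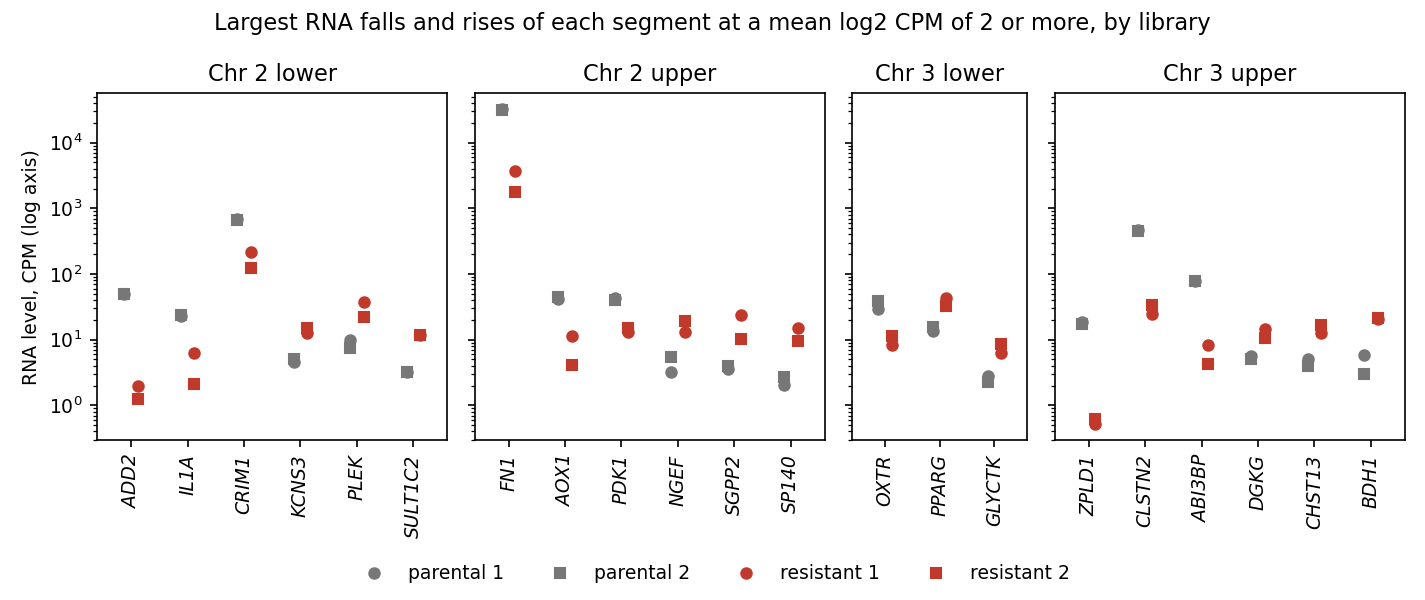
RNA level (CPM, log axis) of the genes with the largest falls and rises of each segment among those at a mean log2 CPM of 2 or more, 1 point per library. Grey points are the parental and red points the resistant libraries, with circles for replicate 1 and squares for replicate 2. Red and grey points do not overlap for any gene shown, which is a condition of how they were chosen, and FN1 is far above the rest.

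Growth and survival genes of upper chromosome 3 showed 2 falls and no rise among 21 tested of 23, with 20 of the 21 below 0 and a median of -0.32. The median over all tested genes of the segment was also -0.32, with 77.1% below 0 and 9.31% fallen. By DESeq2, 3 of the list were lower and 0 higher. TIPARP, a target gene and repressor of the aryl hydrocarbon receptor, fell from 68.7 and 73.7 to 30.1 and 15.2 CPM (-1.65 ± 0.32, edgeR adjusted p = 0.0399). TFRC, the transferrin receptor, fell from 344 and 343 to 212 and 160 CPM (-0.88 ± 0.18, edgeR adjusted p = 0.0446). TFRC lost its call without parental library 1 (adjusted p = 0.304), without parental library 2 (0.311), with library totals only (0.0608) and where genes under a mean log2 CPM of 2 were left out (0.0520), in a range from 3.40e-04 to 0.311. PIK3CA, the catalytic subunit of a PI3 kinase, was at a log2 fold change of -0.63 and did not pass. HES1, a target of Notch, was the member above 0, at 0.88, and did not pass.

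Membrane and adhesion genes of upper chromosome 3 had the most calls of the lists, with 8 falls and no rise among 17 tested of 23, 14 below 0 and a median of -0.88. Of all tested genes 3.41% fell, and of those of the segment 9.31% fell and 77.1% were below 0. By DESeq2, 10 of the list were lower and 0 higher, and the falls named here are those of edgeR. BOC, a co-receptor of Hedgehog ligands, fell from 2.63 and 3.49 to 0.323 and 0.699 CPM (-2.59 ± 0.49, edgeR adjusted p = 0.0385). CD200, a glycoprotein that restrains myeloid cells, fell from 2.53 and 3.97 to 0.388 and 0.699 CPM (-2.58 ± 0.49, edgeR adjusted p = 0.0382). Both lost the call without parental library 2, with an adjusted p of 0.137 for BOC, in a range from 1.70e-04, and of 0.189 for CD200, in a range from 1.41e-04. The other 6 falls were in PLOD2, a collagen lysyl hydroxylase (-2.15), HEG1, an endothelial mucin-like receptor (-1.37), MYLK, the myosin light chain kinase (-1.28), CD47, a signal that inhibits phagocytosis (-1.03), ALCAM, a cell adhesion molecule (-0.88), and PLXNA1, a semaphorin receptor (-0.74). TM4SF1, TM4SF4 and ITGB5 were the members above 0, at 0.05, 0.63 and 0.08, and none passed.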

How the data were processed

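H3K27ac was measured in 4 libraries and RNA in 4, with 2 per line. For each H3K27ac library the authors deposited 1 list of peaks, giving positions and a score. How peaks were called, whether inputs were used and what the score means is not given in the sources used here. For RNA the authors deposited estimated counts and TPM of 20114 gene symbols per library. STAR, RSEM, DESeq2 1.40.2, GRCh38 and hg19 are named without roles, per the submitters' processing notes. Peaks of chromosome 2 end at up to 243152818, beyond the last GRCh38 gene of the gene table at 242175685, and were read as hg19. Peak names in the list of resistant replicate 1 carry another dose than the labels give for upkeep, and the list was assigned by its recorded sample.

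Peaks were merged in Python 3.11.15 with pandas 2.3.3. Fractional estimated counts (3.16%) were rounded. After filterByExpr 12792 genes remained. They were scaled by TMM and compared by edgeR 4.0.16 (R 4.3.3) in its quasi-likelihood F test with a term for line, and Benjamini-Hochberg adjustment ran over every tested gene. The script was tested on simulated data. CPM values are scaled by TMM, and deposited TPM served for effective length and 1 alternative. A gene table (GRCh38.p14) gave names and gene order and matched 12569 tested genes. A further 62 symbols were left out as doubles.

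Named genes were, in each segment, up to 3 rises and 3 falls of largest change among calls at a mean log2 CPM of at least 2 with no overlap between lines. From each of 12 lists they were up to 2 rises and 2 falls, or, with no call, the 2 members of highest level. Further genes and windows were picked with their values in view. Named regions were, per segment, the top 3 gained and top 3 lost by weaker score and the 2 shared ones with the highest lowest percentile. The regions, segments, lists and rules were chosen with earlier results of these data known. Alternatives for RNA were other scalings, filters, DESeq2 1.42.0, a replicate term and 1 library left out at a time. Peak alternatives were scores of at least 5, lists trimmed to their 52367 best peaks, 50% cover, merging within 500 bp, shifts of the division by 10 Mb and 1 library left out.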

Additional observations from a re-analysis of the deposited data

How the results depend on the processing

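Of 388 values recomputed for region counts, list shares, gene calls, medians and count shares, 224 stayed within their limits (1.5 times for a count, 1 SD or the 95% interval otherwise) and 164 did not. Where no cause is named it was not tested. Segments are given in the order lower chromosome 2, upper chromosome 2, lower chromosome 3, upper chromosome 3.

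With only peaks at a score of 5 or more, gained regions numbered 50 in lower chromosome 2, 26 in lower and 57 in upper chromosome 3, lost regions 166, 78, 11 and 139, and the percent gained was 4.49 in upper chromosome 2 and 3.22 in lower chromosome 3. With 50% cover, fewer regions count as present: shared regions numbered 268, 209, 106 and 193, lost regions of lower chromosome 3 numbered 16, and the percent lost was 2.86 in upper chromosome 2, 1.30 in lower and 3.801 in upper chromosome 3. With equal numbers of best peaks the percent gained was 2.90 in lower chromosome 2 and the percent lost 4.21 in upper chromosome 3. As percent of covered bases, the list shares differed by -1.12 points in lower chromosome 2 and -1.40 in upper chromosome 3. Leaving out 1 H3K27ac library makes the classes easier to meet. Gained regions then ran from 157 to 583, 231 to 764, 93 to 256 and 127 to 513, and lost ones from 346 to 1301, 182 to 922, 32 to 153 and 269 to 1410. The percent gained ran from 3.95 to 13.3, 5.97 to 20.6, 8.14 to 22.5 and 3.11 to 12.3, and the percent lost from 8.46 to 32.7, 4.91 to 23.8, 2.81 to 13.4 and 6.44 to 34.5.

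Same-numbered RNA libraries of the lines did not deviate together (correlation -0.0464 over 12792 genes), so the numbers were not taken to pair them. With the replicate block, edgeR called 860 genes higher and 1020 lower, and the falls were 95, 28, 13 and 71, with 36 rises in upper chromosome 2, 13 in lower chromosome 3 and a median of 0.053 there. DESeq2 called 609 higher and 737 lower, with falls of 72, 19, 5 and 55 and rises of 32 in upper chromosome 2 and 10 in lower chromosome 3. With library totals, rises were 26 in upper chromosome 2 and 8 in lower chromosome 3, and medians -0.24, 0.16 and 0.16 in the first 3 segments. At a mean log2 CPM of 2 or more, upper chromosome 2 had 5 falls, lower chromosome 3 had 2 rises and 1 fall, and upper chromosome 3 had 5 rises. With no filter beyond 1 count the median of lower chromosome 3 was 0.054. Leaving out 1 RNA library gave 141 to 3374 genes higher and 264 to 3479 lower in all, rises of 2 to 35, 9 to 107, 3 to 82 and 2 to 29, falls of 13 to 221, 7 to 118, 2 to 64 and 20 to 195, and medians of -0.40 to -0.31 in lower chromosome 2 and 0.060 to 0.10 in lower chromosome 3.

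By tertiles of effective gene length (lowest, middle, highest), added after seeing the data, medians were -0.13 and -0.51 in the lowest and highest tertile of lower chromosome 2, 0.22, 0.16 and -0.11 in upper chromosome 2, 0.27, 0.079 and -0.11 in lower chromosome 3, and -0.057 in the lowest tertile of upper chromosome 3. By tertiles of mean level, also added, they were 0.21 in the lowest tertile of upper chromosome 2, 0.14, 0.020 and -0.0028 in lower chromosome 3, and -0.13 and -0.46 in the lowest and highest tertile of upper chromosome 3. As percent of summed TPM, the shares differed by -1.12, -0.571, -0.0201 and -0.509 points. Without the gene of largest count, which was left in the totals, they differed by 0.140 in upper chromosome 2 and 0.0902 in lower chromosome 3.

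Of 29 named genes past the threshold all 29 kept their direction under every alternative and 17 kept the call under every one. Directions reversed only for uncalled genes. The values are log2 fold changes: with library totals RBM5 turned to 0.053, XRCC5 to 0.042 and TGFBRAP1 to 0.015. With 1 library left out, RBM5 ran from -0.15 to 0.083, ITGAV from -0.86 to 0.19, ITGB5 from -0.015 to 0.17, TGFBRAP1 from -0.25 to 0.081 and BMPR2 from -0.54 to 0.015, and the sign turned without resistant library 2, or for RBM5 without parental library 2 or resistant library 1. Depth limits calls of genes at few counts.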
